A study of Mus musculus with 6 samples.

Results

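Gprin2, Tshb, Cidea, Wnt10a, Tspan2 and Ccdc141 are 6 genes with names tied to other tissues that stood among the largest rises in mouse CD4 T cells carrying E47. They were taken by exact gene symbol from the platform annotation, which gave 13 of the 45101 probe sets, or 6 of 18193 named genes. The genes were chosen by their E47 minus control differences on these same arrays, so every E47 against control value for them is a description and carries no test. Whether their expression is ectopic was not tested. Control levels are set against the arrays below. The control means of Wnt10a and Tspan2 lay above the median of all probe sets, and that of Tshb lay close to it.

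RNA came from 3 control and 3 E47 samples of C57BL/6 lymph node CD4+CD25- T cells, hybridised to Affymetrix mouse expression arrays. Both groups were cultured for 2 days on plates coated with anti-CD3 (2 µg/ml) and anti-CD28 (1 µg/ml), a setting that steers cells towards a regulatory T cell fate once TGF-β1 is present. TGF-β1 was at 5 ng/ml, and IL-2 was added at 200 U/ml. On day 1 they received a retrovirus, pMIT-bHLH-ER in control and pMIT-E47-ER in E47 samples. Both groups were sorted as CD4+Thy1.1+ and then kept for 6 hours on the same antibodies with IL-2 and 1 µM tamoxifen. Samples with the same number came from 1 of 3 independent experiments, with mice of 7, 8 and 9 weeks and 3, 3 and 4 mice pooled per sample. The labels name the control construct without saying which bHLH sequence it carries, and no sample lacked tamoxifen. Bulk RNA cannot tell apart a change in every cell from a change in the share of cells that express a gene.

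E47 is a splice form of Tcf3 and belongs to the E proteins, basic helix-loop-helix factors that bind DNA at E-box sequences of the form CANNTG and drive lymphocyte development. In an ER fusion, tamoxifen releases the factor into the nucleus. The products of the 6 genes work in unrelated processes. Gprin2 belongs to the GPRIN proteins, which bind activated G protein α subunits of the Gi and Go class and are best known from neurons. Tshb is the β chain that gives thyroid-stimulating hormone its specificity, and it pairs with the common α chain encoded by Cga in pituitary thyrotrophs. Cidea is a lipid droplet protein that promotes droplet growth and marks brown fat. Wnt10a is a secreted Wnt ligand of skin, hair and teeth. Tspan2 is a tetraspanin of the cell membrane that is prominent in oligodendrocytes. Ccdc141 is a coiled-coil protein studied in neuron migration.

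The sequence upstream of the genes was examined because E47 binds DNA and all 6 were higher with the E47 construct than with the control construct. Whether E47 acts on these genes directly was not tested. RefSeq promoter windows (build GRCm38.p6, 250 bases before to 50 after a start) matched 4 of the 6 genes, with 5 windows in all, and no window was matched for Cidea or Wnt10a. The 4 windows shown are 1 for each matched gene. They read 5′ to 3′ on the gene's strand, and capitals mark every CANNTG match.
Gprin2, chr14:34201584-34201883, minus strand: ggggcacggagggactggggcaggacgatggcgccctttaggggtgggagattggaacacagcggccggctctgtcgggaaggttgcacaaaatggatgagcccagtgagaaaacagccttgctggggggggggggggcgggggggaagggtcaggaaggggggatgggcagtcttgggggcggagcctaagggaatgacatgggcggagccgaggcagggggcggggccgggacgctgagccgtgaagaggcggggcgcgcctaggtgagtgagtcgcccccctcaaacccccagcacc
Tshb, chr3:102782665-102782964, minus strand: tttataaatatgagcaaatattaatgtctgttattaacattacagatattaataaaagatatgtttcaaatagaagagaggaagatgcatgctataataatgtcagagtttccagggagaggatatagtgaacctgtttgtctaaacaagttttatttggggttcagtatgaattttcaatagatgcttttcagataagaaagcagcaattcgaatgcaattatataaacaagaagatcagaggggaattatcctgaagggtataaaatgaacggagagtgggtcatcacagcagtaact
Tspan2, chr3:102734520-102734819, plus strand: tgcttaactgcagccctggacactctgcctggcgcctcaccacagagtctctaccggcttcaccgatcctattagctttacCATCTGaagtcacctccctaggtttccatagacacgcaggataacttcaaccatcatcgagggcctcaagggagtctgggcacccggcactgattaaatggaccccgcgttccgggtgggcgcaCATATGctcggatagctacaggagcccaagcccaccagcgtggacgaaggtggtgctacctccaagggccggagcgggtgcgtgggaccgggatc
Ccdc141, chr2:77170586-77170885, minus strand: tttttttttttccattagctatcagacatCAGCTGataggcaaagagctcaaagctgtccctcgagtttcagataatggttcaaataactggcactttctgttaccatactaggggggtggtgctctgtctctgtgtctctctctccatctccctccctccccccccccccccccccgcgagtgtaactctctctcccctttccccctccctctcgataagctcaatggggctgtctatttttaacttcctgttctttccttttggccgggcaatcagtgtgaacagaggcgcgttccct
The Gprin2 and Tshb windows held 0 matches to CANNTG on either strand. The Tspan2 window shown held 2 matches, of which CATCTG began at position -169 from the start and the second at position -45. Its other window held 1. The Ccdc141 window held 1, a CAGCTG at position -221. E proteins are known to bind CAGCTG well. They also bind CAGGTG, or its reverse complement as read on the other strand, which the 5 windows held 0 times. Across 32851 promoter windows of the same length, 72.3% held CANNTG, 16.3% held CAGCTG and 20.2% held CAGGTG on either strand, and each such match is also a CANNTG match. These matches describe letters in short windows, and sites elsewhere near the genes were not analysed here.

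Each gene was represented by its brightest probe set, and levels are log2 of the deposited intensity. The median of all probe sets on all arrays was 5.12. Probe sets differ in how strongly they bind their RNA, so this median places a gene only roughly. All 6 genes had every E47 array above every control array in the brightest probe set, and so did 846 of 18193 genes, or 4.65%. By size of the difference the members stood at ranks 2 (Gprin2), 3 (Tshb), 6 (Cidea), 7 (Wnt10a), 10 (Tspan2) and 12 (Ccdc141) of 18193. The order of the first 2 members depended on the setting, since Tshb exceeded Gprin2 with 16 added to each value (3.70 against 3.68), without experiment 2 (4.38 against 4.17), without E47 replicate 2 (4.68 against 4.41) and without control replicate 3 (4.52 against 4.51). The median difference over the 6 was 3.21, against -0.03 over all genes. Over all genes 12 (0.0660%) differed upwards by at least 2.55, the value of Ccdc141. By limma at an adjusted p under 0.05, 44 genes were higher (0.242%) and 1 lower (0.00550%), and with the experiment as a block 142 were higher (0.781%) and 66 lower (0.363%). The members belong to both by the way they were picked, and nothing is read from that.

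In experiments 1 to 3, Gprin2 read 4.86, 4.19 and 5.00 (log2) on the control arrays and 9.09, 8.90 and 9.10 on the E47 arrays. The 3 E47 arrays lay close together and 3.89 above the highest control array. The means were 4.68 ± 0.43 and 9.03 ± 0.11 (SD, n = 3), a 20.3-fold difference. Its difference by experiment was 4.23, 4.71 and 4.10 on the log2 scale, the largest where control was lowest. Its control mean minus that overall median was -0.44, with 42.5% of probe sets lower, and in E47 86.0% were lower.

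Tshb read 5.10, 4.46 and 5.63 on the control arrays and 9.84, 8.41 and 9.65 on the E47 arrays of the same experiments. Both groups were lowest in experiment 2, and the lowest E47 array still exceeded the highest control array by 2.77. The means were 5.06 ± 0.59 and 9.30 ± 0.78 (SD, n = 3), an 18.9-fold difference. In linear units the E47 arrays read 918, 339 and 805, against 34.2, 22.0 and 49.6 in control. The control mean minus the overall median was -0.06, which is less than the spread between its replicates.

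Cidea read 3.86, 4.39 and 4.38 on the control arrays and 7.18, 8.24 and 7.21 on the E47 arrays of the same experiments. Experiment 2 gave the highest E47 array here, the opposite of Tshb. The means were 4.21 ± 0.30 and 7.55 ± 0.60 (SD, n = 3), a 10.1-fold difference. The control mean minus the overall median was -0.91, with 33.9% of probe sets lower, and for the E47 mean the value was 2.42.

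Wnt10a read 7.00, 6.90 and 6.58 on the control arrays and 10.31, 8.87 and 10.53 on the E47 arrays of the same experiments. The control arrays were alike and the E47 array of experiment 2 stood apart, and the fold difference was 3.91 in experiment 2 against 9.93 and 15.5 in experiments 1 and 3. The means were 6.83 ± 0.22 and 9.90 ± 0.90 (SD, n = 3), an 8.44-fold difference. Each experiment had 1 array per group, so whether the size of the difference depends on the experiment could not be tested. Its control mean was 1.70 above the median of all probe sets, with 69.9% of them lower.

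Tspan2 read 7.16, 5.97 and 7.10 on the control arrays and 9.83, 8.93 and 9.82 on the E47 arrays of the same experiments. Control and E47 arrays were both lower in experiment 2. At the brightest probe sets, its differences of 2.66, 2.96 and 2.72 were the most alike of the 6 genes (SD 0.16). The means were 6.75 ± 0.67 and 9.53 ± 0.51 (SD, n = 3), a 6.87-fold difference. Control again lay above the median, by 1.62. In the other Tspan2 probe sets the differences by experiment had SDs of 0.59 (1424567_at) and 0.12 (1432417_a_at).

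Ccdc141 read 4.44, 3.66 and 4.03 on the control arrays and 6.68, 6.68 and 6.43 on the E47 arrays of the same experiments. The E47 arrays were alike, and the means were 4.04 ± 0.39 and 6.59 ± 0.15 (SD, n = 3), a 5.86-fold difference. Against the overall median the control mean stood at -1.08 and the E47 mean at 1.47.

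**Figure D1:**
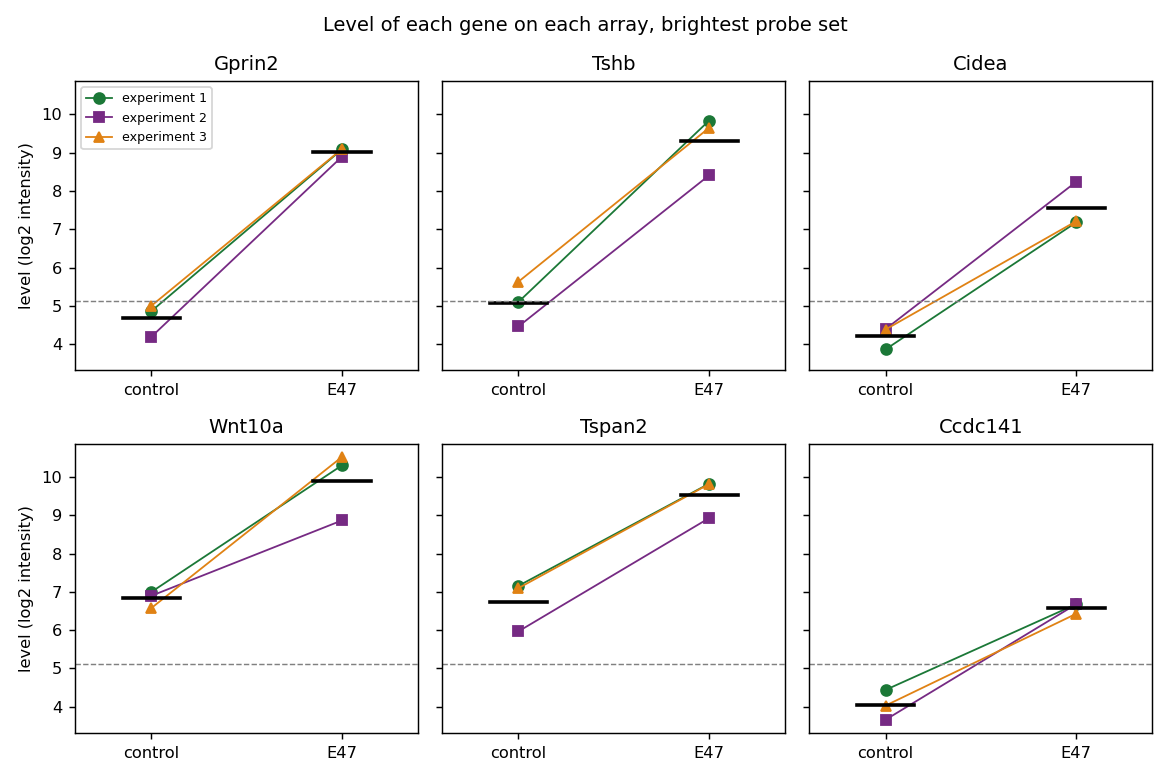
Log2 intensity (y axis) of each gene on the control and E47 arrays (x axis), with arrays of the same experiment joined by a line, black bars at the group means and a dashed line at 5.12, the median of all probe sets. In every panel all E47 arrays lie above all control arrays; control means are below the dashed line for Gprin2, Tshb, Cidea and Ccdc141 and above it for Wnt10a and Tspan2.

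To see how the arrays read genes best known from other organs, 19 measured genes were taken, such as Alb and Ins2. They are genes of liver, pancreas, kidney, eye, mammary gland and germ cells. Their control means ran from 2.83 (Umod, a kidney gene) to 6.82 (Csn2, a milk protein gene), with a median of 4.08, and 14 of 19 were below 5.12. Csn2 read 6.59, 7.62 and 6.24 on the control arrays and 6.27, 6.77 and 5.53 on the E47 arrays. Whether these cells express Csn2 was not tested. Of these 19, 11 were at or above the control mean of Ccdc141, 8 for Cidea, 7 for Gprin2, 5 for Tshb, 1 for Tspan2 (Csn2) and 0 for Wnt10a. On the E47 arrays, none of the 19 had a mean at or above that of any of the 6 genes. The control mean of Csn2, 6.82, did exceed the E47 mean of Ccdc141, 6.59. Whether the control levels exceed the arrays' background was not tested. Adding 16 to each linear value before log2 lowered the differences to 3.68 for Gprin2, 3.70 for Tshb, 2.56 for Cidea and 1.79 for Ccdc141.

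Only Tspan2 and Ccdc141 had more than 1 probe set, so agreement could be examined for these 2 genes alone. For Tspan2 the 3 probe sets gave differences of 2.78 (1424568_at), 3.44 (1424567_at) and 1.96 (1432417_a_at), and in each the groups did not overlap. The differences per experiment did not overlap between the probe sets, at 2.66 to 2.96, 3.03 to 4.12 and 1.83 to 2.05, so the size depended on the probe set while the direction did not. For Ccdc141 only 2 of 6 probe sets showed the difference. The brightest, 1437967_at, gave 2.55, and 1460125_at gave 1.91 with levels of 3.85, 3.45 and 3.17 on the control arrays and 5.35, 5.36 and 5.49 on the E47 arrays. The other 4 (1429946_at, 1457681_at, 1447251_x_at and 1447250_a_at) gave 0.24, 0.17, 0.16 and 0.15, with all means below 5.12. In 1457681_at and 1447251_x_at the groups overlapped. Averaging the 6 probe sets lowered the Ccdc141 difference from 2.55 to 0.86. Where on the transcripts these probe sets lie was not analysed here.

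**Figure D2:**
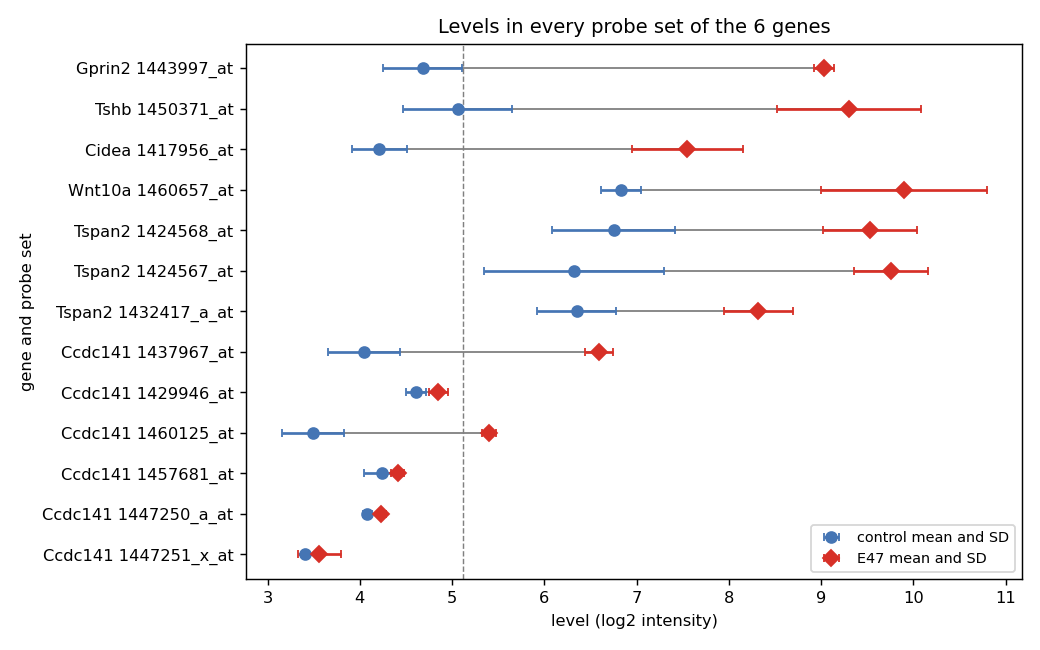
Mean log2 intensity (x axis) in control (circles) and E47 (diamonds) for each of the 13 probe sets (y axis), with SD over 3 arrays as error bars and a dashed line at 5.12. The 3 Tspan2 probe sets all separate the groups, while 4 of the 6 Ccdc141 probe sets stay below 5.12 in both, with differences of 0.15 to 0.24.

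The experiments were compared over all genes with limma's F test of the experiment, in the fit that also holds the group. This comparison does not use the E47 against control difference that picked the genes, and it was added after the values had been seen. Over all genes 582 of 18193, or 3.20%, differed between experiments at an adjusted p under 0.05. Of the 6 genes 2 did, Tspan2 and Tshb. Tspan2 averaged 8.50, 7.45 and 8.46 in experiments 1 to 3 (adjusted p = 0.0118 by limma), and Tshb 7.47, 6.43 and 7.64 (adjusted p = 0.0470 by limma). Both were lower in experiment 2 than in the others. Experiment 2 minus the mean of the others was -1.16 in control and -0.89 in E47 for Tspan2, and -0.91 and -1.34 for Tshb. Without experiment 2 the adjusted p was 0.978 for Tspan2 and 0.925 for Tshb. Without experiment 3 it was 0.0347 and 0.0958, and without experiment 1 it was 0.00322 and 0.00109. Over all named probe sets in place of genes the adjusted p of Tshb was 0.0735. The other 2 Tspan2 probe sets then had adjusted p = 0.118 (1424567_at) and 0.0530 (1432417_a_at) by limma, against 0.0221 for 1424568_at.

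The other 4 genes did not pass this test by limma, with adjusted p = 0.235 for Gprin2, 0.213 for Cidea, 0.514 for Wnt10a and 0.459 for Ccdc141. Wnt10a in experiment 2 was -1.55 from the mean of the other experiments in E47 but 0.11 in control. Cidea in experiment 2 was 1.05 above that mean in E47 and 0.27 above it in control. With the experiment as a block the standard error of the E47 minus control difference was 0.09 in place of 0.36 for Tspan2 and 0.16 in place of 0.42 for Tshb, but 0.34 in place of 0.40 for Wnt10a. The mice were 7, 8 and 9 weeks old in experiments 1 to 3, so age and experiment cannot be told apart.

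**Figure D3:**
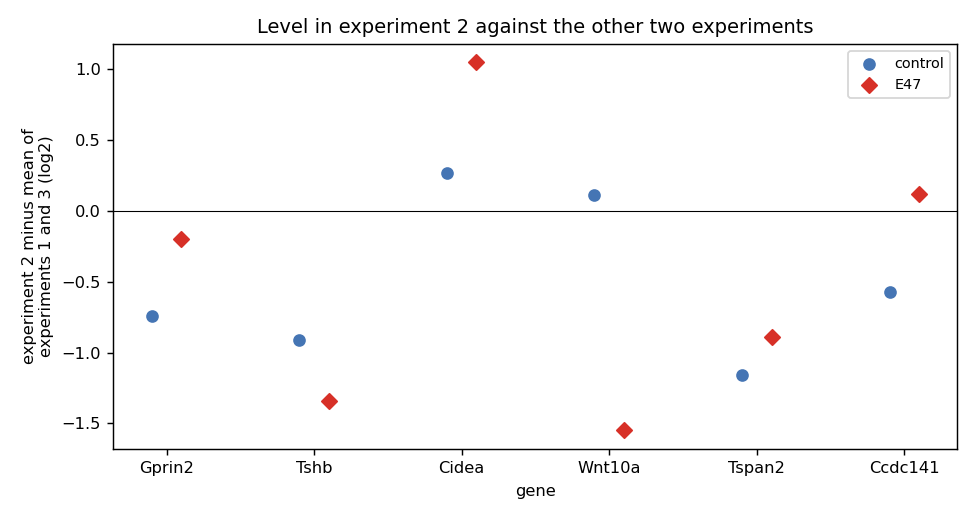
Level in experiment 2 minus the mean of experiments 1 and 3 (y axis, log2) for each gene (x axis), in control (circles) and E47 (diamonds). Tshb and Tspan2 are lower in both groups, Wnt10a is at 0.11 in control and -1.55 in E47, and Cidea is above 0 in both.

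Tspan2 and Tshb are direct neighbours among protein-coding genes of the RefSeq gene table, and their promoter windows lie on opposite strands of chromosome 3. To see whether higher levels extended along the chromosome, up to 5 protein-coding genes on each side of every member were taken, 39 of which were measured besides the members. By limma 0 of the 39 were higher and 0 lower, with or without the block (background 0.242% higher without the block and 0.781% with it). At an unadjusted p under 0.05 without the block, 2 of the 39 were higher (Tubb6 and Glud1) and 0 lower, where 2.72% of all genes were higher and 3.93% lower. In 4 of the 39 (10.3%) all E47 arrays lay above all control arrays, against 4.65% of all genes. In 3 (7.69%) they all lay below, against 7.13% of all genes. Of the 4, 2 are neighbours of Gprin2 and 2 of Cidea. The differences of the 39 ran from -0.26 to 0.63 with a median of 0.03.

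Beside the pair on chromosome 3, the closest measured genes were Vangl1, a planar cell polarity protein (0.01, SE 0.11), on the Tspan2 side and Sycp1, a protein of meiotic chromosomes (0.01, SE 0.13), on the Tshb side. Wnt10a lies beside Wnt6, another Wnt ligand, which had levels of 5.91, 6.25 and 6.10 on the control arrays and 6.05, 5.96 and 5.88 on the E47 arrays (difference -0.12, SE 0.11, adjusted p = 0.894 by limma). Cdk5r2, an activator of the kinase Cdk5 on its other side, had a difference of -0.16 (SE 0.11). Ccdc141 lies beside Ttn, which encodes the giant muscle protein titin (0.06, SE 0.11), and Sestd1 (0.05, SE 0.12). The closest measured neighbours of Gprin2 were Npy4r, a neuropeptide receptor (-0.03, SE 0.10), and Shld2, a DNA repair protein (0.12, SE 0.08). Those of Cidea were Mppe1 (0.13, SE 0.09) and Tubb6, a β-tubulin. Tubb6 read 9.43, 8.64 and 9.46 on the control arrays and 9.88, 9.66 and 9.89 on the E47 arrays, so the groups did not overlap. The difference was 0.63 (SE 0.22, adjusted p = 0.652 by limma, 0.122 with the block).

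**Figure D4:**
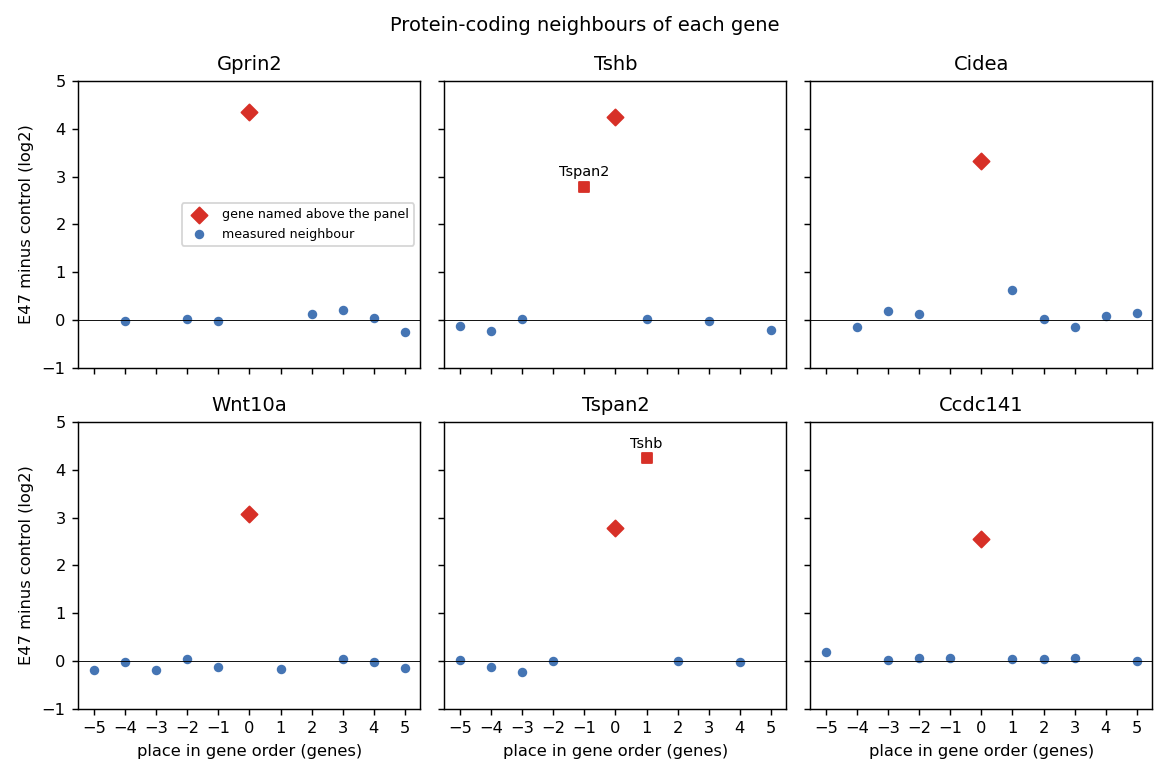
E47 minus control difference (y axis, log2) against the place in the order of protein-coding genes (x axis, in genes, the named gene at 0). Measured neighbours lie between -0.26 and 0.63, except that Tspan2 (2.78) and Tshb (4.24) sit beside each other.

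The relatives and partners of the 6 genes were examined next, as 9 lists of receptors, paralogs and pathway members with 135 measured genes besides the members. Without the block 0 of 135 were higher and 0 lower by limma. Of these 135, 3 were higher and 10 lower at an unadjusted p under 0.05, where 2.72% of all genes were higher and 3.93% lower. With the block 1 was higher (0.741%, against 0.781% of all genes) and 0 lower, and with the experiment as a random block, at the estimated correlation, 0 were higher. Their median difference was -0.05, against -0.03 over all genes, and the range was -0.39 to 0.55.

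Among Wnt ligands and proteins of their secretion, 1 of 20 besides Wnt10a rose, and that with the fixed block alone. At an unadjusted p under 0.05 without the block 3 of the 20 were higher and 1 lower, where 2.72% of all genes were higher and 3.93% lower. The 3 higher genes, Wnt10b, Wnt3 and Wnt16, are also the 3 family genes higher at that threshold, and in 3 of the 20 all E47 arrays lay above all control arrays (4.65% of all genes). The gene that rose with the fixed block was Wnt10b, the closest relative of Wnt10a, known for its action on bone, fat and stem cells. It read 7.20, 6.89 and 7.22 on the control arrays and 7.66, 7.54 and 7.76 on the E47 arrays, so the groups did not overlap. The difference was 0.55 (1.46-fold, SE 0.08 with the block, adjusted p = 0.0413 by limma with the block and 0.272 without it). With the random block, at the estimated correlation, the call was lost (adjusted p = 0.0622 by limma). With the block the adjusted p was 0.0484 without experiment 1, 0.293 without experiment 2 and 0.218 without experiment 3. Wnt3 had a difference of 0.53 from a low level of 3.93 (adjusted p = 0.577 by limma) and Wnt16 of 0.27 from 4.20 (adjusted p = 0.685 by limma).

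Of 15 Wnt receptors and coreceptors 0 passed in either limma fit, and 0 at an unadjusted p under 0.05, with differences from -0.15 to 0.06. Of 27 genes of Wnt signal transduction and its targets 0 passed in either fit. Among these 27, 0 were higher and 2 lower at an unadjusted p under 0.05, where 2.72% of all genes were higher and 3.93% lower. Axin2, a direct target of β-catenin that feeds back on the pathway, read 6.70, 6.71 and 6.69 on the control arrays and 6.50, 6.60 and 6.64 on the E47 arrays (difference -0.12, SE 0.08, adjusted p = 0.840 by limma). Lef1, a nuclear partner of β-catenin in T cells, was bright and differed by 0.01 (SE 0.14). Lgr5 (-0.19) and Sfrp4 (-0.23), a stem cell receptor and a secreted Wnt antagonist, had the lowest p of this list and did not pass.

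The partners of Tshb gave no call either. Of 6 other measured glycoprotein hormones and receptors, 0 passed in either limma fit and 0 at an unadjusted p under 0.05. Cga, without whose product the β chain does not form the hormone, read 4.44, 4.51 and 4.47 on the control arrays and 4.51, 4.10 and 4.27 on the E47 arrays (difference -0.18, SE 0.12, adjusted p = 0.832 by limma). All 6 of these Cga levels were below the median of all probe sets. Tshr, the receptor of the hormone, had a difference of -0.08 (SE 0.11) from a control level of 4.63. In the thyroid hormone axis 0 of 8 passed, and Thra, the thyroid hormone receptor α, differed by -0.09 (SE 0.14).

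Of 17 other CIDE and lipid droplet genes 0 passed in either limma fit. Of the 17, 0 were higher and 3 lower at an unadjusted p under 0.05, where 2.72% of all genes were higher and 3.93% lower. The paralogs Cideb and Cidec had differences of -0.11 (SE 0.11) and 0.04 (SE 0.11). Plin2, the most widespread coat protein of lipid droplets, read 7.58, 7.46 and 7.38 on the control arrays and 7.11, 7.20 and 6.95 on the E47 arrays. Its groups did not overlap in the opposite direction to Cidea (difference -0.38, SE 0.10, adjusted p = 0.454 by limma, 0.138 with the block), as in 7.13% of all genes. Lipe, the hormone-sensitive lipase, had a difference of -0.26 (adjusted p = 0.672 by limma).

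Of 28 other tetraspanins 0 passed in either limma fit, with a median of -0.09. Without adjustment, at a p under 0.05, 0 of the 28 were higher and 3 lower, where 2.72% of all genes were higher and 3.93% lower. Cd9 and Cd81, which are abundant on lymphocytes, had differences of -0.24 (SE 0.08) and -0.34 (SE 0.16). Tspan8 (-0.39, adjusted p = 0.536 by limma) and Tspan9 (-0.31, adjusted p = 0.609 by limma) had the lowest p of the list. Of 7 other GPRIN and G protein genes 0 passed. Gprin1 differed by -0.16 (SE 0.10) and Gprin3 by 0.54 (SE 0.24, adjusted p = 0.747 by limma), with 7.16, 6.59 and 6.46 on the control arrays and 7.41, 6.85 and 7.59 on the E47 arrays, which overlap. Gnai1 had a difference of -0.26 (adjusted p = 0.713 by limma). The Gi subunit genes Gnai2 and Gnai3 were bright, with control means of 11.08 and 11.41. Their differences were -0.05 (SE 0.09) and -0.17 (SE 0.08). Of 7 partners of Ccdc141 in neuron migration 0 passed, with differences between -0.14 (Nde1) and 0.05 (Pcm1).

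Marker genes of the tissues that the 6 names recall were then counted. Of 63 such genes besides the members 0 were higher and 0 lower by limma in either fit. At an unadjusted p under 0.05 without the block, 1 of the 63 was higher (the neuronal tubulin Tubb3, 0.32) and 4 lower, where 2.72% of all genes were higher and 3.93% lower. The median difference was -0.07. In the pituitary list 0 of 9 passed, and Lhx3, a pituitary transcription factor, had the highest value with 5.05, 5.05 and 5.43 on the control arrays and 5.87, 6.23 and 5.06 on the E47 arrays (0.54, adjusted p = 0.797 by limma), where the groups overlap. In the brown adipocyte list 0 of 12 passed, and Ucp1, the uncoupling protein that defines brown fat, had a difference of -0.03 (SE 0.15) from a level of 3.51. In the oligodendrocyte list 0 of 9 passed, and Sox10, a factor of that lineage, had -0.23 (adjusted p = 0.804 by limma). Of 11 neuron, 11 epithelial and 11 striated muscle genes 0 passed, with Stmn2 (-0.49), Lor (-0.32) and Myh7 (-0.36) at the lowest p of each list.

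**Figure D5:**
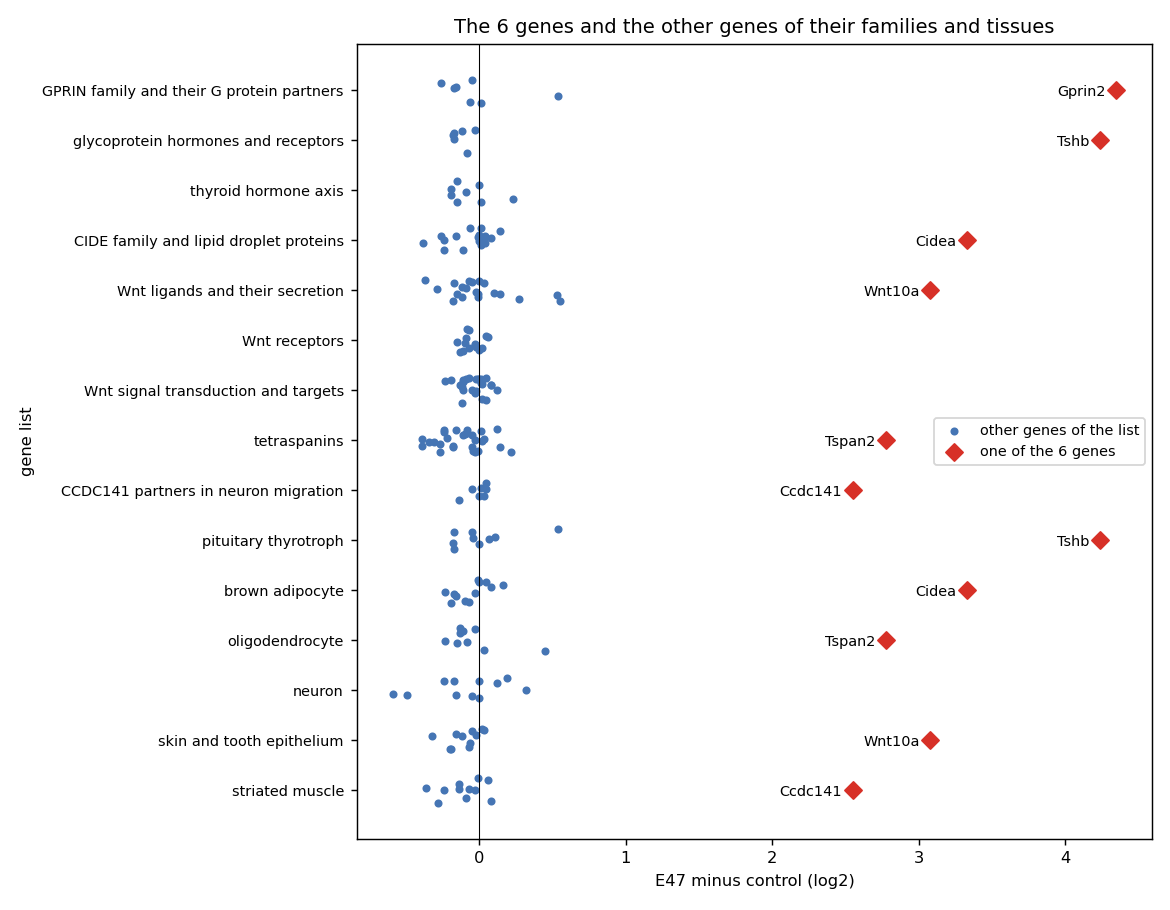
E47 minus control difference (x axis, log2) for the genes of each family and tissue list (y axis), with the 6 members as red diamonds and the other measured genes as blue points (spread vertically at random within a row). The 135 family genes lie between -0.39 and 0.55 and the 63 tissue genes between -0.59 and 0.54, while the members lie between 2.55 and 4.35.

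Marker genes of T cells and of other cells were read on the same arrays. All 13 measured T cell genes had control means above 5.12, among them Cd3e (9.15), Cd4 (8.07) and Foxp3, the Treg lineage factor (6.96). Of these, Thy1, whose Thy1.1 form was the sorting mark of the vectors, rose with the block (0.82, adjusted p = 0.0138 by limma; 0.301 without it). With the random block, at the estimated correlation, this call was lost (adjusted p = 0.0598 by limma). Over all genes 0.781% were higher with the fixed block. At an unadjusted p under 0.05 without the block, 3 of the 13 T cell genes were higher (Thy1, Cd247 and Cd3g) and 0 lower. Over all genes 2.72% were higher and 3.93% lower at that threshold. Of 28 markers of CD8 T, B, NK, myeloid, dendritic and stromal cells, 0 passed by limma in either fit. Some of these markers also had control means above 5.12. They were 2 of 2 CD8 T, 3 of 6 B, 1 of 4 NK, 4 of 9 myeloid and dendritic and 2 of 7 stromal genes. Pdpn, from the stromal list, read 9.86, 7.02 and 10.19 on the control arrays and 9.87, 7.40 and 9.92 on the E47 arrays. Which cells these levels came from was not tested. At an unadjusted p under 0.05, 1 of the 28 was higher and 1 lower (the monocyte receptor Cd14, -0.25), where 2.72% of all genes were higher and 3.93% lower. The 1 higher marker was Cd8b1, a chain of CD8 (0.51, adjusted p = 0.685 by limma; 0.0405 with the block and without experiment 1). The summed linear level of both CD8 markers ran from 139.9 to 209.1 in control and from 188.9 to 326.9 in E47, and its part in the members' values was not tested.

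The genes with the most similar course over the 6 arrays were found by Pearson correlation with the mean centred profile of the members, as a description that shares the contrast used to pick them. Genes with clone-like names, such as Rik or Gm symbols, were passed over, here and for single members. The 5 closest of the rest were Cxcr5, the receptor of follicular homing (r = 0.990, difference 4.11), Gramd3 (0.989, 0.62), Cdyl2 (0.988, 1.15), Zmynd8 (0.987, 0.44) and Il4, the Th2 cytokine (0.986, 1.46). For single members the closest were Gramd3 for Gprin2 (0.995), Zmynd8 for Tshb (0.993), Oxld1 for Cidea (0.996), Mipol1 for Wnt10a (0.991), Il10, an anti-inflammatory cytokine, for Tspan2 (0.995) and Ighv14-2 for Ccdc141 (0.995). Ighv14-2 belongs to a family of near-identical gene segments, so its identity is uncertain. No member was the closest gene of another.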

How the data were processed

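The authors deposited 1 RMA-processed intensity per probe set and array on a linear scale (RMA per the submitters' processing notes, version not given in the sources used here). Medians of the arrays lay between 34.3 and 35.4, and log2 was taken. Arrays carry no read depth, and 3 per group limit the precision. Of 45101 probe sets 34958 had 1 gene symbol in GEO's platform annotation, 932 had several and 9211 were not listed. Each of 18193 genes was represented by its brightest probe set. E47 was compared with control by limma 3.58.1 in R 4.3.3 (lmFit, eBayes, two-sided, Benjamini-Hochberg over all genes, threshold 0.05) with the group as the only term. The experiment as a block was an alternative. Pairing rests on the design text, and same-numbered arrays deviated together (r = 0.28, 0.67 and 0.43). Control 3 with E47 1 gave 0.25 and control 1 with E47 3 gave 0.18. Unlike-numbered pairs with an array of experiment 2 ran from -0.52 to -0.34. The values thus set experiment 2 apart but hardly tell experiment 1 from 3. The fits without and with the fixed block were tested on simulated data that held no difference between experiments. The random block and the F test were not tested in this way.

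Members and lists were chosen with earlier results of these data known. Named from each list were genes past the threshold and up to 2 others by lowest p. The closest measured neighbours and the 5 genes of most similar profile, with clone-like names passed over, were named as well. Paralogs, hormone partners and defining markers were named after their values were seen. Promoter windows and gene order came from RefSeq (GRCm38.p6). No samples were left out.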

Additional observations from a re-analysis of the deposited data

How the results depend on the processing

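Over 22 alternatives the members' differences ran from 3.68 to 4.51 for Gprin2, 3.70 to 4.68 for Tshb and 2.56 to 3.58 for Cidea. They ran from 2.64 to 3.63 for Wnt10a, 2.39 to 3.08 for Tspan2 and 0.86 to 2.75 for Ccdc141. All were above 0, and nothing is read from that, since the genes were picked by this difference. The blocks, the variance trend, the fit over all probe sets and the removal of dim genes cannot change a gene's difference. The members' median of 3.21 was 2.76 with a pseudocount of 16 and between 3.13 and 3.35 with 1 array or experiment left out. With the replicate block 142 genes were higher, 66 lower and 1 family-list gene higher. With the random block these counts over all genes were 79 and 13, with 0 family-list genes higher, and with a pseudocount of 16 they were 25 and 0. The lower count was 0 over all probe sets, with median centring and with dim genes removed, and 2 with a variance trend. With arrays or experiments left out, 5 to 59 genes were higher and 0 to 6 lower without the block, and 41 to 208 higher and 0 to 80 lower with it (8 without experiment 2). The higher count was 15 or 23 when the first or the third control array was left out, 17 when the third E47 array was, 9 without experiment 1 and 5 without experiment 3. The family-list count with the block was 0 to 1 with an experiment left out. Tissue-marker and neighbour counts were 0 in every alternative. The difference of Tshb between experiments had adjusted p = 0.0844 by limma with a pseudocount of 16. The cause of the other shifts was not tested.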

Other observations

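The 229 genes of the family, tissue and neighbour lists besides the members were also compared between experiments with limma's F test. The comparison was added after the data were seen, and it left out the T cell, other-cell and organ gene lists. Of the 229 genes, 6 differed (2.62%, against 3.20% of all genes). In each of the 6, experiment 2 held the highest or the lowest array of both groups. Wls, which carries Wnt proteins to the cell surface, read 5.29, 6.53 and 4.91 on the control arrays and 5.34, 6.62 and 4.87 on the E47 arrays (adjusted p = 0.00262 by limma), so the constructs differed by 0.03. Cnp, a myelin enzyme, was also higher in experiment 2, with 10.36, 11.32 and 9.77 on the control arrays and 10.62, 11.96 and 10.23 on the E47 arrays (adjusted p = 0.00493 by limma). Tspan32, a tetraspanin of blood cells, was 0.60 higher there than the mean of experiments 1 and 3 (adjusted p = 0.0256 by limma). Gap43, a growth cone protein of neurons, was lower in experiment 2, with 7.95, 6.33 and 7.22 on the control arrays and 7.53, 5.20 and 6.98 on the E47 arrays (adjusted p = 0.0152 by limma). Tnnt2, cardiac troponin T (-1.04, adjusted p = 0.0156 by limma), and Tg, thyroglobulin (-1.26, adjusted p = 0.0158 by limma), were lower there as well.

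Across all probe sets, 16 had an E47 minus control difference at least as large as that of Ccdc141, and 7 of them belonged to the 6 genes. The cutoff was the smallest difference of the 6, so the brightest probe set of each passed by construction. Of the 16, 0 were probe sets without a gene name.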
